A study of Mus musculus with 24 samples.

Results

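The 62 genes described here encode membrane carriers of amino acids and small peptides in the solute carrier families 1, 3, 6, 7, 15, 36, 38 and 43. They were chosen by symbol alone, as the genes named for one of these families, the letter a and a number and read by probe sets of no other gene, and are 62 of the 18820 genes measured. Slc6a20a and Slc6a20b, whose symbols end in a letter, lie outside this rule and are counted with other carriers at the end. By family there were 18 genes of Slc6, 13 of Slc7, 11 of Slc38, 7 of Slc1, 5 of Slc15, 4 of Slc36, 3 of Slc43 and 1 of Slc3. Slc3a1, Slc7a7 and Slc7a10 share their probe sets with another gene and were not analysed here.

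RNA of terminal ileum was measured in 24 male C57BL/6OlaHsd mice of 8 weeks, 1 array per mouse, 12 conventional and 12 germ-free. In each status, 4 mice received water, 4 short-chain β2→1-fructan and 4 long-chain β2→1-fructan, each fructan at 10 mg per day by gavage for 5 days. All mice ate the D12450B diet. For germ-free mice the short-chain β2→1-fructan was sterilized by filtration and the long-chain β2→1-fructan by irradiation at 25 kGy, which broke down part of its longest chains. The conventional, specified pathogen-free mice were bought from a supplier, whereas the germ-free mice came from a breeding colony elsewhere, so that colony and colonization cannot be told apart. In mice given a fructan, colonization and the sterilization of the fiber cannot be told apart either, also in the interactions below. Values are log2 expression after robust multiarray averaging (RMA), so that a difference of 1 is 2-fold. Levels of different genes are read by different probes and were not compared with each other. The values hold no test of signal over background, so a low level may be a bound.

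Protein of the meal reaches the ileum as free amino acids and short peptides. Enterocytes take them up across the brush border with carriers driven by sodium or protons, or by exchange, and release them to the blood through basolateral exchangers and uniporters. Other members of these families supply dividing or stressed cells, export amino acids from lysosomes, or clear transmitters from around nerves.

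Germ-free and conventional mice were first compared over the 3 treatments. A gene is called here at an unadjusted p under 0.01 in limma and a fold change over 1.3, and adjusted p-values are from the Benjamini-Hochberg method over all 18820 genes. Of the 62 carriers, 6 were called (9.68%), against 8.20% of all genes. The apical carrier Slc6a18 and the proton-coupled carrier Slc36a2 were higher in germ-free mice, and Slc6a14, Slc43a2, Slc15a3 and Slc7a14 were lower, against 2.99% of all genes called higher and 5.22% lower. At an adjusted p under 0.05, 25 of 62 differed (40.3%), 11 higher and 14 lower, against 34.0% of all genes. The median difference of the 62 was 0.016 on the log2 scale, and that of all genes was 0.029. The shares of the carriers were thus near those of the whole array, and the results concern single carriers and not the families as a set.

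**Figure D1:**
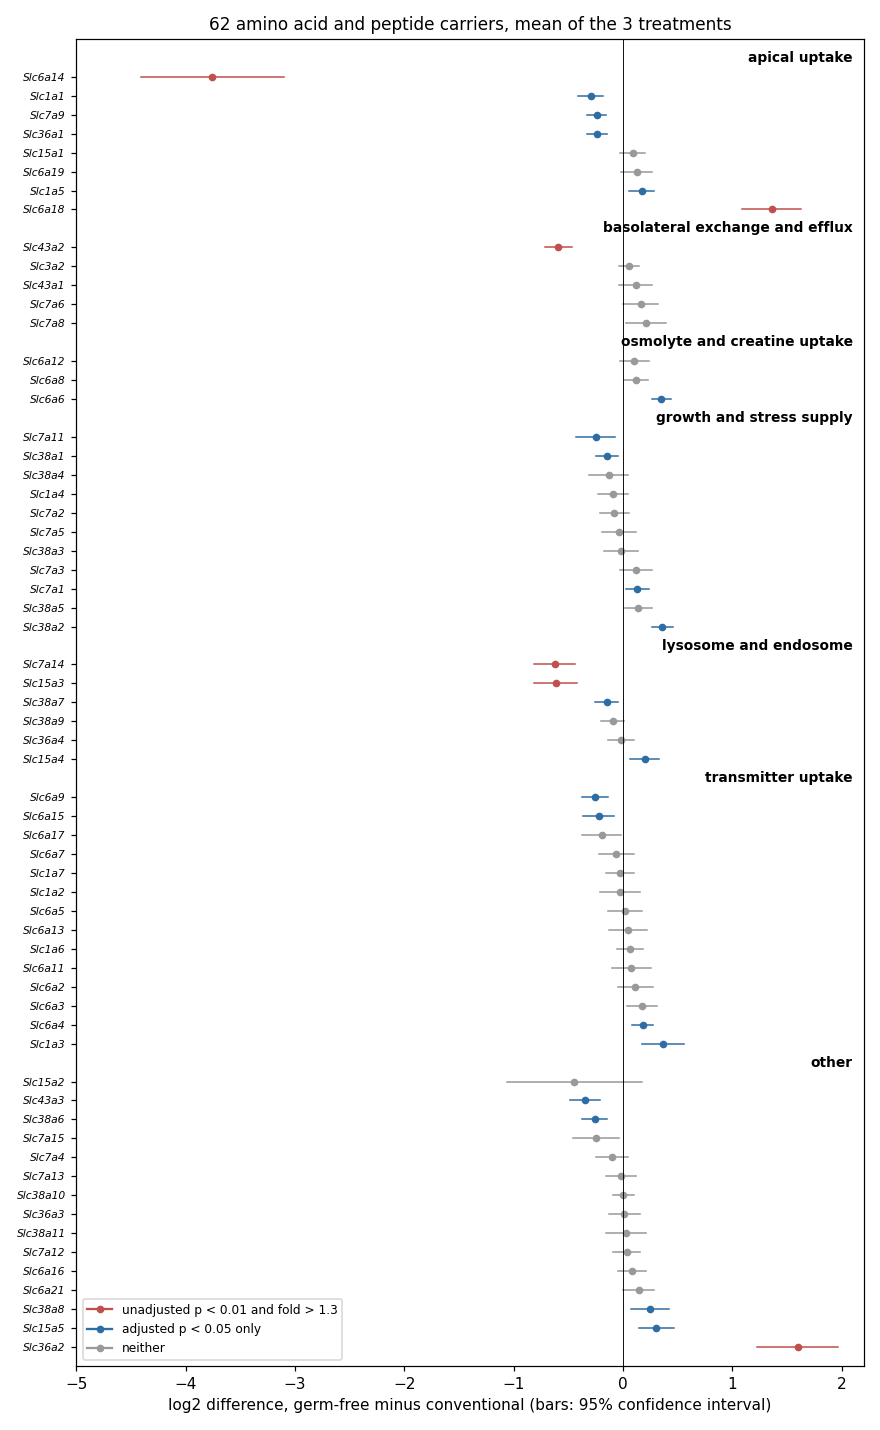
Difference between germ-free and conventional mice on the log2 scale (x axis) for each of the 62 carriers (y axis), grouped by role, averaged over the 3 treatments with 12 mice per status. Points are estimates and bars 95% confidence intervals. Slc6a14 lies at -3.76, Slc36a2 at 1.60 and Slc6a18 at 1.36, while the remaining genes lie between -0.63 and 0.37.

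Slc6a14, a sodium- and chloride-driven carrier of neutral and cationic amino acids, differed most among the 62. Its levels were 10.02, 10.22, 10.18 and 10.30 in the conventional mice on water, 10.56, 10.16, 10.46 and 10.65 after short-chain β2→1-fructan and 10.46, 10.09, 10.42 and 10.53 after long-chain β2→1-fructan. In germ-free mice they were 3.79, 7.31, 7.19 and 5.64 on water, 7.39, 4.66, 5.82 and 7.35 after short-chain β2→1-fructan and 6.20, 7.82, 8.00 and 7.83 after long-chain β2→1-fructan. No germ-free mouse reached the lowest conventional mouse. The difference was -3.76 on the log2 scale (SE 0.32), or 13.5-fold lower in germ-free mice (limma, adjusted p = 5.1e-10). On water it was 18.4-fold, after short-chain β2→1-fructan 17.8-fold and after long-chain β2→1-fructan 7.55-fold. Without replicate 1 of germ-free mice on water the difference on water was -3.47 on the log2 scale in place of -4.20. In every treatment the 4 germ-free mice were below the 4 conventional mice (two-sided exact permutation test, p = 0.029, the smallest that 4 against 4 can give). As the RNA is of whole tissue, fewer cells of a type and less RNA per cell cannot be told apart, here and below.

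The germ-free mice also differed from each other in Slc6a14. Their SD over 4 mice was 1.65 with water, 1.32 with the short-chain and 0.846 with the long-chain fiber, whereas that of conventional mice was 0.121, 0.214 and 0.197. The mean level of 9 markers of proximal enterocytes, among them Fabp1, Apoa4 and Scd1, is given beside it. The order of the 4 mice by this mean was the reverse of that by Slc6a14 in 1 of 3 germ-free and 1 of 3 conventional groups. This list was at 6.45 to 7.22 in conventional and 6.98 to 8.39 in germ-free mice. Of its 9 genes, 4 were called higher in germ-free mice, against 2.99% of all genes. Khk was higher at an adjusted p under 0.05 but was not called. The germ-free mouse with the lowest Slc6a14, replicate 1 on water, had the highest marker level of all mice at 8.39. The next lowest, replicate 2 after short-chain β2→1-fructan at 4.66, had the next highest marker level at 8.07. In replicate 2 of germ-free mice after long-chain β2→1-fructan the markers were at 6.98, inside the conventional range, and Slc6a14 was at 7.82, still below the lowest conventional mouse at 10.02. The list of 8 general enterocyte markers was at 11.35 to 11.52 in conventional and 11.33 to 11.58 in germ-free mice. Of 8 ileal enterocyte markers, 1 was called lower, Fgf15, against 5.22% of all genes. At an adjusted p under 0.05, Slc51b, Slc51a and Cubn were lower too and Slc10a2 was higher, against 15.4% and 18.6% of all genes. The list was at 10.35 to 10.70 in conventional and 9.78 to 10.51 in germ-free mice. Fgf15 differed by -3.57 on the log2 scale, and the other ileal markers by -0.32 to 0.15. The part of the proximal and ileal markers in the difference of Slc6a14 was not tested.

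**Figure D2:**
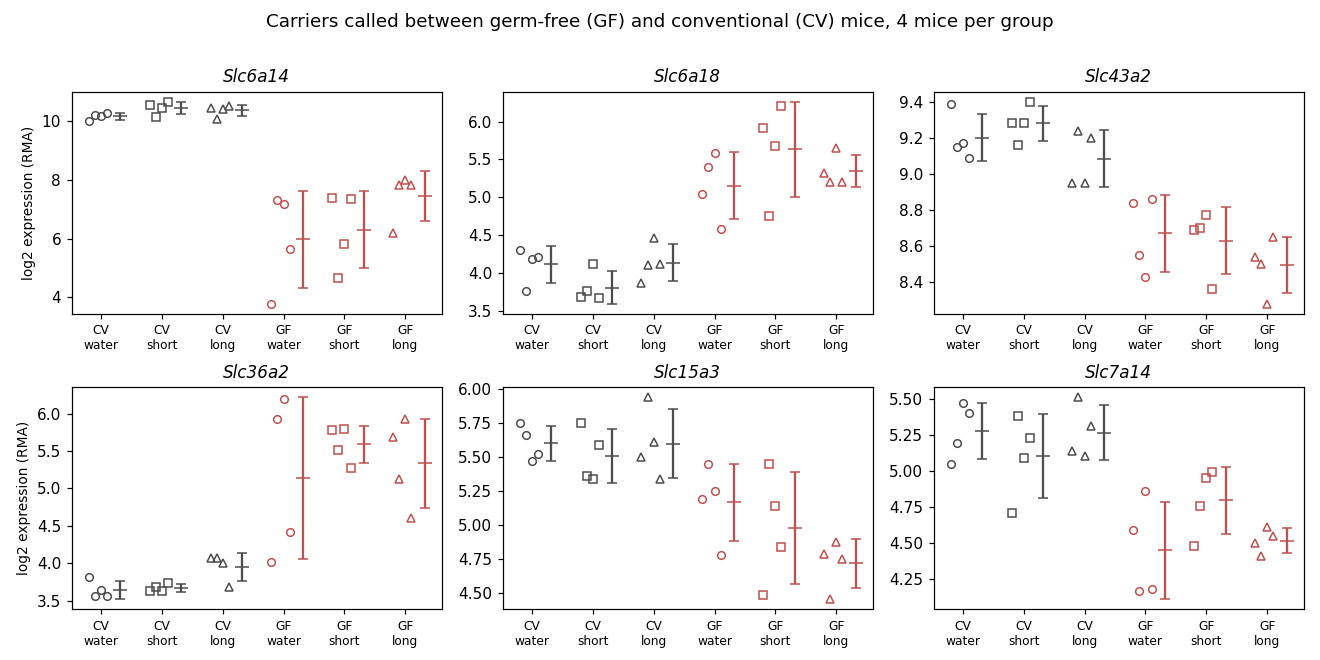
Log2 expression (y axis) of the 6 called carriers in each mouse of the 6 groups (x axis; CV, conventional, grey; GF, germ-free, red; short and long, the β2→1-fructans). Open symbols are mice, and the bar beside them is the mean with the SD of 4 mice. The germ-free mice of Slc6a14 spread from 3.79 to 8.00 and the conventional mice from 10.02 to 10.65.

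Slc6a18, an apical carrier of neutral amino acids such as glycine and alanine, was higher in germ-free mice. Conventional levels were 4.30, 3.76, 4.18 and 4.21 on water, 3.68, 3.76, 4.12 and 3.67 after short-chain β2→1-fructan and 3.87, 4.10, 4.46 and 4.12 after long-chain β2→1-fructan. Germ-free levels were 5.04, 5.40, 5.59 and 4.58 on water, 5.91, 4.75, 5.68 and 6.20 after short-chain β2→1-fructan and 5.32, 5.20, 5.65 and 5.20 after long-chain β2→1-fructan. The lowest germ-free mouse, at 4.58, was above the highest conventional mouse, at 4.46. The difference was 1.36 on the log2 scale (SE 0.13), or 2.56-fold (limma, adjusted p = 5.01e-09). It was called in each treatment, at 2.06-fold on water, 3.55-fold after short-chain β2→1-fructan and 2.31-fold after long-chain β2→1-fructan. Its direct neighbour in the RefSeq table of GRCm38.p6, Slc6a19, differed by 0.13 (95% confidence interval -0.018 to 0.27, limma, adjusted p = 0.178).

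The remaining apical carriers differed less. Slc15a1, the proton-coupled carrier of di- and tripeptides, was at 10.14 to 10.84 in conventional and 10.32 to 10.84 in germ-free mice, a difference of 0.09 with a 95% confidence interval of -0.028 to 0.20. Slc6a19, the sodium-driven carrier of neutral amino acids of the small intestine, was at 9.60 to 10.40 and 10.00 to 10.54. Slc7a9, which exchanges cystine and cationic amino acids against neutral ones, was at 10.14 to 10.53 in conventional and 9.78 to 10.19 in germ-free mice. It was lower by 0.24 on the log2 scale, or 1.18-fold (SE 0.043, limma, adjusted p = 7.64e-05), with overlapping mice. Slc1a1, a glutamate and aspartate carrier, was 1.23-fold lower (SE 0.057 on the log2 scale, limma, adjusted p = 0.000166), and its second probe set gave -0.28 beside -0.30. On water alone it was called, with levels of 9.34, 9.26, 9.21 and 9.13 in conventional and 8.97, 8.72, 8.73 and 8.98 in germ-free mice. The difference there, -0.38, lies at the fold threshold, and the call ended without replicates 1 or 2 of conventional (-0.35 and -0.37) or 2 or 3 of germ-free mice (both -0.34) and with array weights (-0.36) or the mean of its probe sets (-0.27). Slc36a1, a proton-coupled carrier of small neutral amino acids, was 1.18-fold lower (limma, adjusted p = 0.000149). Slc1a5, an exchanger for glutamine and other neutral amino acids, was 1.13-fold higher (limma, adjusted p = 0.0197), but did not pass with cyclic loess (0.13). Of the 8 apical carriers measured, 2 were thus higher and 4 lower at an adjusted p under 0.05, against 18.6% and 15.4% of all genes.

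Of the 5 basolateral carriers, 1 was called, against 8.20% of all genes, and this was Slc43a2. It is a uniporter that lets branched-chain amino acids, phenylalanine and methionine out of the cell. Its levels were 9.39, 9.15, 9.17 and 9.09 in conventional mice on water, 9.28, 9.16, 9.28 and 9.40 after short-chain β2→1-fructan and 8.95, 9.24, 8.95 and 9.20 after long-chain β2→1-fructan. In germ-free mice they were 8.84, 8.55, 8.43 and 8.86 on water, 8.69, 8.70, 8.77 and 8.36 after short-chain β2→1-fructan and 8.54, 8.50, 8.28 and 8.65 after long-chain β2→1-fructan. The highest germ-free mouse, at 8.86, was below the lowest conventional mouse, at 8.95. The difference was -0.59 (SE 0.059), or 1.51-fold lower (limma, adjusted p = 1.08e-08), and it was called in each treatment, at 1.44-fold with water, 1.57-fold with the short-chain and 1.51-fold with the long-chain fiber. The other basolateral carriers did not pass. Slc3a2, the heavy chain that carries light chains to the membrane, was at 9.60 to 10.05 in conventional and 9.71 to 10.07 in germ-free mice, a difference of 0.05 (95% confidence interval -0.040 to 0.14). Differences of 0.21 for the neutral amino acid exchanger Slc7a8, 0.16 for Slc7a6 and 0.12 for Slc43a1 had adjusted p-values of 0.0638, 0.110 and 0.242 in limma.

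**Figure D3:**
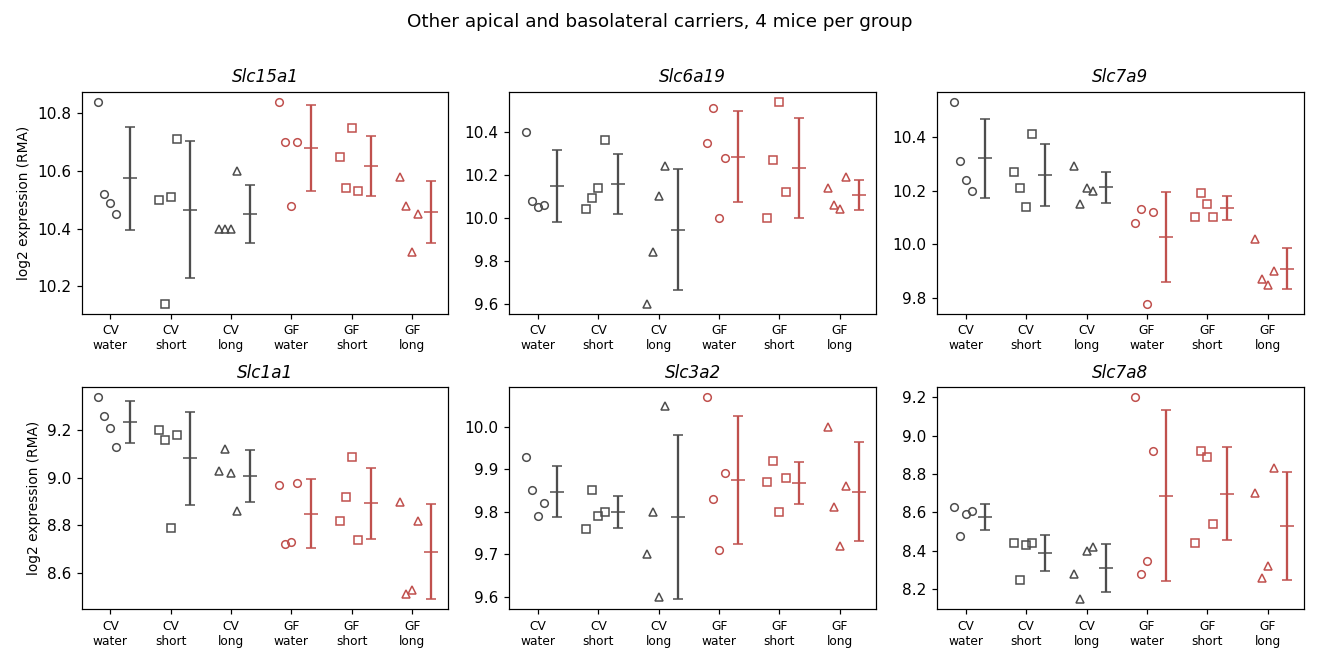
Log2 expression (y axis) of 6 other apical and basolateral carriers in each mouse of the 6 groups (x axis; CV, conventional, grey; GF, germ-free, red). Open symbols are mice, and the bar beside them is the mean with the SD of 4 mice. Conventional and germ-free mice overlap in all 6 genes over the 3 treatments.

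Stretches before an annotated start are shown for 3 of these genes. Slc6a14 and Slc43a2 are the pair that were called lower in germ-free mice in each treatment and have an entry in the RefSeq promoter table. The peptide carrier Slc15a1 did not pass. Each is the 250 bases before an annotated start, 5′ to 3′ on the gene's strand, in GRCm38.p6. Slc6a14 is at chrX:21714650-21714899 on the plus strand, Slc43a2 at chr11:75531444-75531693 on the plus strand, and Slc15a1 at chr14:121505255-121505504 on the minus strand. For Slc43a2 the entry listed first of its 2 annotated starts was taken. Its window lies inside the annotated span of the gene, which begins at 75529915. Capitals mark the matches to the motifs searched.
Slc6a14: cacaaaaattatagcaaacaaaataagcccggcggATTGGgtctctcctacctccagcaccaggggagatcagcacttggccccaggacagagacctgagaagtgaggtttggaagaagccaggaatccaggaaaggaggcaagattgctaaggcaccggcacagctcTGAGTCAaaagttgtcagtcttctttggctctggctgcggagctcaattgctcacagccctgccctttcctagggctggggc
Slc43a2: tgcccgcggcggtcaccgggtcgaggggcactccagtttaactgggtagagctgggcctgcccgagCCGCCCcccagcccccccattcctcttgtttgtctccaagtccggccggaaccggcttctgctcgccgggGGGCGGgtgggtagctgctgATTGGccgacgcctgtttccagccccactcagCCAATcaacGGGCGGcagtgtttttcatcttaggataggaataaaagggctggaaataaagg
Slc15a1: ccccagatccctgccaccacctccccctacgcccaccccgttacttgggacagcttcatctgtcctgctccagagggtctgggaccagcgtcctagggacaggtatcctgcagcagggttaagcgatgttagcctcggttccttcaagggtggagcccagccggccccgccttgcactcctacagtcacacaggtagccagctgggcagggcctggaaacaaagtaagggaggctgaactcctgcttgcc
Both strands were searched for 8 motifs, chosen with the sequences in view. Of core promoter elements these were the TATA box, spelled TATAAA, then the CCAAT box as its name spells it, and the GC box, searched as GGGCGG. Of factor sites they were TGANTCA for the factor AP-1, next AGATAA for the GATA factors, and TTTATG for the CDX factors of the gut. The last were TTCNNNGAA for the STAT factors and TGATGNAA for ATF4 with a partner. The Slc6a14 window held 1 CCAAT box and 1 AP-1 site, which 33.8% and 6.75% of the 32851 windows of the same length also held. The Slc43a2 window held 2 CCAAT boxes and 3 GC boxes, the latter found in 32.7% of all windows. The Slc15a1 window held none of the 8. No match overlapped another. These matches describe letters and not binding.

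Slc36a2, a proton-coupled carrier of glycine, proline and alanine, is known as a surface marker of brown and beige adipocytes. Conventional levels were 3.82, 3.56, 3.65 and 3.56 on water, 3.63, 3.68, 3.63 and 3.74 after short-chain β2→1-fructan and 4.07, 4.07, 4.01 and 3.68 after long-chain β2→1-fructan. Germ-free levels were 4.02, 5.93, 6.19 and 4.42 on water, 5.78, 5.51, 5.80 and 5.28 after short-chain β2→1-fructan and 5.69, 5.12, 5.93 and 4.60 after long-chain β2→1-fructan. Of the 12 germ-free mice, 11 were above all conventional mice, and replicate 1 on water was inside their range. The difference was 1.60 (SE 0.18), or 3.03-fold higher (limma, adjusted p = 8.56e-08).

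Adipocyte markers were also higher. Of 7 such genes, 6 were called higher in germ-free mice (Adipoq, Fabp4, Plin1, Lep, Retn and Car3), against 2.99% of all genes. The median difference over the list was 1.73. The mean of the list was 5.60 to 7.13 in conventional mice. In germ-free mice the list stood at 6.38, 7.85, 8.44 and 6.83 on water, at 8.14, 7.93, 8.27 and 7.89 after short-chain β2→1-fructan and 8.15, 7.31, 8.43 and 6.84 after long-chain β2→1-fructan. In all 3 germ-free groups the order of the 4 mice by this mean was the same as their order by Slc36a2, and in 0 of 3 conventional groups was it so. The germ-free mice with adipocyte markers inside the conventional range were replicates 1 and 4 on water and replicate 4 after long-chain β2→1-fructan, and these had the 3 lowest Slc36a2 levels of germ-free mice, 4.02, 4.42 and 4.60. The part of the adipocyte markers in the difference of Slc36a2 was not tested.

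**Figure D4:**
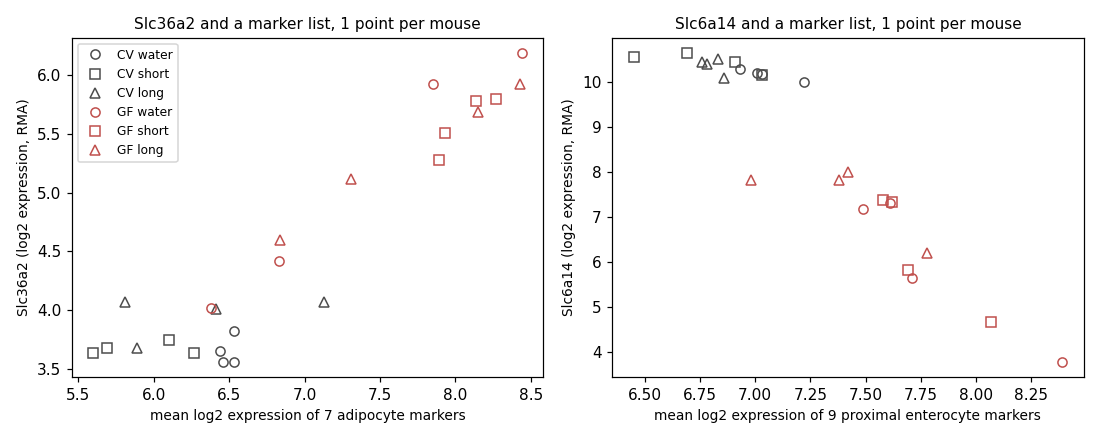
Slc36a2 (left, y axis, log2 expression) against the mean log2 expression of 7 adipocyte markers, and Slc6a14 (right) against that of 9 proximal enterocyte markers, 1 point per mouse. Grey is conventional, red is germ-free, and symbols give the treatment. The points of germ-free mice run from 6.38 to 8.44 on the left x axis and from 6.98 to 8.39 on the right one.

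Among 6 carriers of lysosomes and endosomes, 2 were called lower, against 5.22% of all genes. Slc15a3, which moves histidine and peptides out of lysosomes of immune cells, was at 5.34 to 5.94 in conventional and 4.46 to 5.45 in germ-free mice. The difference was -0.61 (SE 0.096), or 1.53-fold lower (limma, adjusted p = 1.2e-05). It was called with both fructans, at 1.44-fold for the short-chain and 1.84-fold for the long-chain one. With the latter, the germ-free mice at 4.79, 4.46, 4.88 and 4.75 lay below the conventional mice at 5.50, 5.94, 5.61 and 5.34. The call with the short-chain fiber ended without replicate 1 (-0.45) or 4 (-0.50) of conventional or 1 (-0.37) or 4 (-0.48) of germ-free mice. Of 8 macrophage and dendritic cell markers, 6 were lower and 1 higher at an adjusted p under 0.05, against 15.4% and 18.6% of all genes. Of these, Csf1r and C1qb were called lower and Cd163 higher. The mean of the list was 6.89 to 7.09 in conventional and 6.54 to 6.90 in germ-free mice. All 9 T cell markers were lower at that adjusted p, against 15.4% of all genes, with list means of 5.55 to 6.23 and 4.16 to 4.74. The order of the mice by Slc15a3 was that by the macrophage and dendritic cell markers in 0 of 3 germ-free and 0 of 3 conventional groups. The part of these cell markers in the difference of Slc15a3 was not tested. Slc15a4, its close relative with the same cargo, was 1.15-fold higher (limma, adjusted p = 0.0187).

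Slc7a14, a lysosomal protein of the cationic amino acid carriers, was at 4.71 to 5.51 in conventional and 4.17 to 4.99 in germ-free mice. It was lower by 0.63 on the log2 scale (SE 0.090), or 1.54-fold (limma, adjusted p = 3.48e-06), and was called on water (1.78-fold) and after long-chain β2→1-fructan (1.67-fold). All 7 measured markers of enteric neurons were lower at an adjusted p under 0.05, as were all 8 of smooth muscle. Over all genes this share was 15.4%. The list means of neurons were 5.60 to 6.07 in conventional and 4.93 to 5.53 in germ-free mice. Those of smooth muscle were 9.80 to 10.08 and 8.80 to 9.74. In 2 of 3 germ-free and 0 of 3 conventional groups the mice had the same order by Slc7a14 and by the neuron markers. The part of neurons and muscle in the difference was not tested. Slc38a7, which exports glutamine from lysosomes, was 1.11-fold lower (limma, adjusted p = 0.026) and no longer passed when 1 of 4 mice was left out, replicate 2 of the conventional or 1 of the germ-free mice given short-chain β2→1-fructan, or 3 of the germ-free mice on water or 2 of those given long-chain β2→1-fructan (all at -0.13). The remaining ones of this group did not pass, at -0.10 and -0.02.

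Of 3 carriers of osmolytes and creatine, 1 passed an adjusted p under 0.05, against 34.0% of all genes, and this was the taurine carrier Slc6a6. It was at 9.19 to 9.52 in conventional and 9.58 to 10.05 in germ-free mice, without overlap. The difference was 0.35 (SE 0.043), or 1.28-fold higher (limma, adjusted p = 3.26e-07), under the fold threshold. After long-chain β2→1-fructan it was called at 1.33-fold, with conventional mice at 9.33, 9.19, 9.40 and 9.52 and germ-free mice at 9.73, 9.65, 9.86 and 9.84. That call ended without replicate 2 of conventional (0.35) or 3 of germ-free mice (0.38), and with cyclic loess (0.37).

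Of 11 carriers that supply growing or stressed cells, 2 were higher and 2 lower at an adjusted p under 0.05, against 18.6% and 15.4% of all genes, and none was called. Slc38a2, a sodium-coupled carrier that cells raise when amino acids run short, was at 9.02 to 9.40 in conventional and 9.31 to 9.85 in germ-free mice. It was 1.28-fold higher (log2 difference 0.36, SE 0.048, limma, adjusted p = 1.05e-06) and was called after short-chain β2→1-fructan at 1.39-fold. There its levels were 9.13, 9.26, 9.23 and 9.13 in conventional and 9.46, 9.61, 9.73 and 9.85 in germ-free mice. Slc7a1, a carrier of arginine and lysine, was 1.09-fold higher (limma, adjusted p = 0.0486), close to the threshold, and passed in 11 of 31 alternatives (range 0.093 to 0.15). Slc38a1, a relative of Slc38a2, was 1.11-fold lower (limma, adjusted p = 0.0213), with a second probe set at -0.06 beside -0.15, and did not pass as the mean of its probe sets (-0.10). Slc7a11, the cystine-glutamate exchanger, was 1.19-fold lower (limma, adjusted p = 0.0265), with conventional mice at 3.03 to 4.04 and germ-free mice at 3.19 to 3.57. These levels were low and may not lie above background. Slc7a11 did not pass without replicate 3 of conventional mice on water (-0.19) or after long-chain β2→1-fructan (-0.22), or replicate 1 of germ-free mice on water (-0.23).

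Among 14 carriers that clear transmitters, 2 were higher and 2 lower at an adjusted p under 0.05, against 18.6% and 15.4% of all genes. Slc6a4, which takes up serotonin, was 1.13-fold higher (limma, adjusted p = 0.00292), at 7.58 to 8.06 in conventional and 7.69 to 8.10 in germ-free mice. Slc1a3, a glutamate carrier of glia, was 1.29-fold higher (limma, adjusted p = 0.00281). It was called after short-chain β2→1-fructan, at 0.75 on the log2 scale (SE 0.16, limma, adjusted p = 0.0018), where the germ-free mice lay above the conventional ones, and was not called on water (0.05) or after long-chain β2→1-fructan (0.30). The 3 measured markers of enteric glia did not pass an adjusted p under 0.05. Their mean was 4.06 to 4.44 in conventional and 4.04 to 4.48 in germ-free mice. The part of glia in the difference of Slc1a3 was not tested. The glycine carrier Slc6a9 was 1.20-fold lower (limma, adjusted p = 0.00071) and was called on water alone, at -0.38 on the log2 scale. That call ended without replicate 2 (-0.38) or 3 (-0.33) of conventional or 2 (-0.32) or 4 (-0.35) of germ-free mice on water, and with array weights (-0.37). Slc6a15, a carrier of branched-chain amino acids and proline in neurons, was 1.17-fold lower (limma, adjusted p = 0.0135). Its levels were low, at 2.97 to 3.55 in conventional and 2.71 to 3.24 in germ-free mice, and may not lie above background.

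Of the other 15 carriers, 3 were higher, Slc36a2 among them, and 2 lower at an adjusted p under 0.05, against 18.6% and 15.4% of all genes. Slc43a3, a carrier of purine bases, was 1.28-fold lower (log2 difference -0.35, SE 0.067, limma, adjusted p = 0.000146), with conventional mice at 8.26 to 8.94 and germ-free mice at 8.00 to 8.70. It was called on water (1.33-fold) and after long-chain β2→1-fructan (1.41-fold), where the germ-free mice at 8.08, 8.19, 8.08 and 8.20 lay below the conventional mice at 8.61, 8.57, 8.40 and 8.94. The call on water ended without replicate 1 or 4 of germ-free mice (both -0.36). Slc38a6 was 1.20-fold lower (limma, adjusted p = 0.000578) and was called after long-chain β2→1-fructan at -0.38, a call that ended without replicate 3 of conventional (-0.33) or 2 (-0.36) or 3 (-0.34) of germ-free mice. Slc15a5 and Slc38a8 were 1.23- and 1.18-fold higher (limma, adjusted p = 0.00308 and 0.0268). Their means over the 24 mice, 3.533 and 3.895, were at the 24.1 and 29.6 percentiles of all genes and may not lie above background. Slc15a5 was called after short-chain β2→1-fructan at 1.31-fold (limma, adjusted p = 0.052). That call ended when any of 6 mice was left out, with values of 0.25 to 0.41, and with only the arrays compared (0.39). Slc38a8 did not pass without replicate 4 of conventional (0.22) or of germ-free mice on water (0.22), or replicate 3 of conventional (0.22) or 2 of germ-free mice after long-chain β2→1-fructan (0.20).

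By treatment, germ-free and conventional mice differed in 8 called carriers on water (12.9%, against 8.74% of all genes), 8 after short-chain β2→1-fructan (12.9%, against 8.76%) and 9 after long-chain β2→1-fructan (14.5%, against 9.69%). At an adjusted p under 0.05 the counts were 12, 9 and 14 of 62 (19.4%, 14.5% and 22.6%), against 13.5%, 15.0% and 15.9% of all genes. Slc6a14, Slc6a18, Slc36a2 and Slc43a2 were called in all 3 treatments. The share of all genes called in all 3 was not counted. A call in 1 treatment and not in another does not show that the treatments differ, and the interaction that tests this is given with the fructans.

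Next, each β2→1-fructan was compared with water within conventional and within germ-free mice, to ask whether the fibers change these carriers with and without a microbiota. In conventional mice, limma called 0 of 62 carriers after short-chain β2→1-fructan (0.409% of all genes were called), 0 after long-chain β2→1-fructan (0.313%) and 0 between the fructans (0.213%). At an unadjusted p under 0.05 there were 1, 4 and 0 of 62 carriers, against 982, 1067 and 684 of the 18820 genes. The intensity-based prior (IBMT) also called 0 carriers in each comparison. With the arrays of the 2 groups alone, or without replicate 3 after short-chain β2→1-fructan, Slc1a3 was called lower after it. After long-chain β2→1-fructan, Slc7a11 was called higher without replicate 3 on water, and Slc6a15 without replicate 2 after that fructan. The differences from water ran from -0.82 (Slc15a2) to 0.28 (Slc6a14) after short-chain and from -0.32 (Slc7a15) to 0.32 (Slc7a11) after long-chain β2→1-fructan. The value of Slc15a2 was -0.33 without replicate 2 and -1.29 without replicate 4 after short-chain β2→1-fructan, and that of Slc7a11 was 0.50 without replicate 3 and 0.18 without replicate 4 on water. The intervals were wide for Slc6a14, -0.85 to 1.41 after short-chain and -0.93 to 1.32 after long-chain β2→1-fructan, as the fit takes 1 variance per gene for all 24 arrays.

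In germ-free mice, 1 carrier was called in each of the 3 comparisons, against 0.579%, 0.855% and 1.41% of all genes. None of the 62 carriers passed an adjusted p under 0.05 in any comparison within a colonization status or in an interaction. After short-chain β2→1-fructan the GABA and taurine carrier Slc6a13 was at 3.34, 3.22, 3.51 and 3.36, above the mice on water at 2.99, 2.68, 2.96 and 2.86 (log2 difference 0.49, limma, adjusted p = 0.746). After long-chain β2→1-fructan the proline carrier Slc6a7 was at 5.66, 5.49, 5.11 and 5.22, against 6.07, 5.45, 5.94 and 5.68 on water, with overlap (1.34-fold lower, limma, adjusted p = 0.376). Between the fructans Slc7a12 was at 2.18, 2.66, 2.35 and 2.71 after long-chain and 2.00, 2.19, 2.12 and 1.95 after short-chain β2→1-fructan (1.33-fold, limma, adjusted p = 0.177). Its mean over the 24 mice, 2.26, was at the 4.02 percentile of all genes, so that it may not lie above background. The mean of Slc6a13, 3.13, was at the 17.7 percentile, and it too may not lie above background. The call of Slc6a13 ended without replicate 2 on water (0.42) or 3 after short-chain β2→1-fructan (0.43). That of Slc6a7 ended without replicate 1 (-0.32) or 3 (-0.37) on water or 3 (-0.33) or 4 (-0.37) after long-chain β2→1-fructan, and with only the arrays compared (-0.42). That of Slc7a12 ended without replicate 4 after short-chain (0.38) or 2 (0.35) or 4 (0.33) after long-chain β2→1-fructan, and with cyclic loess (0.35) or array weights (0.35).

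Slc6a14 had the widest difference from water among germ-free mice, 1.48 on the log2 scale after long-chain β2→1-fructan (95% confidence interval 0.35 to 2.61), and was not called (limma, unadjusted p = 0.0121, adjusted p = 0.417). The mice after long-chain β2→1-fructan lay at 6.20 to 8.00 (SD 0.846) and those on water at 3.79 to 7.31 (SD 1.65). Conventional groups had SDs of 0.121 to 0.214. As the fit takes 1 variance per gene for all 24 arrays, the interval of this difference may be too narrow for the germ-free mice. The change after long-chain β2→1-fructan differed from that in conventional mice by 1.28 (95% confidence interval -0.31 to 2.88). Without replicate 1 on water, at 3.79, these values were 0.75 and 0.55. The change after long-chain β2→1-fructan was called without replicate 2 (1.92) or 3 (1.88) on water, replicate 1 after long-chain β2→1-fructan (1.90) or replicate 2 of germ-free mice given the short-chain fiber (1.48).

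The change after a β2→1-fructan was then compared between germ-free and conventional mice. After short-chain β2→1-fructan this interaction called 1 carrier, Slc1a3 (0.707% of all genes), by 0.70 on the log2 scale (SE 0.23, limma, adjusted p = 0.90). Its conventional levels were 5.04, 4.71, 5.00 and 4.89 on water and 4.18, 4.53, 4.72 and 4.52 after short-chain β2→1-fructan, and its germ-free levels were 4.73, 5.27, 4.95 and 4.90 on water and 5.17, 5.51, 5.15 and 5.14 after it. The call ended without replicate 1 (0.66) or 3 (0.67) of conventional mice on water, replicate 1 of those after short-chain β2→1-fructan (0.60), replicate 1 of germ-free mice on water (0.62) or replicate 2 of germ-free mice given the short-chain fiber (0.61). For the interaction after long-chain β2→1-fructan, limma and IBMT called 0 carriers (0.531% of all genes). In it 0 of 62 carriers had an unadjusted p under 0.05, against 704 of the 18820 genes.

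**Figure D5:**
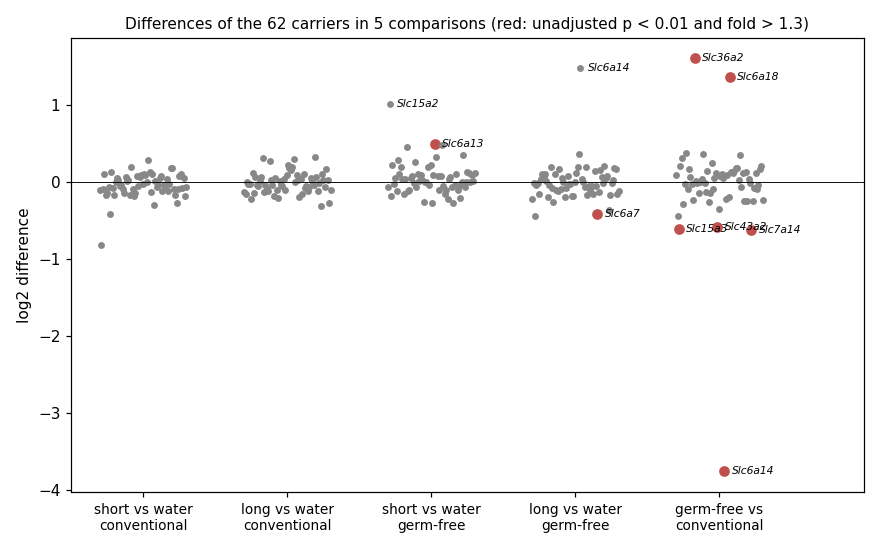
Log2 difference (y axis) of each of the 62 carriers in 5 comparisons (x axis): each β2→1-fructan against water in conventional and germ-free mice, and germ-free against conventional mice over the 3 treatments. Red points were called. The conventional columns hold no red point, each germ-free fructan column holds 1, and the last holds 6.

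Genes other than the 62 that handle the same substrates were counted for germ-free against conventional mice over the 3 treatments. Over all genes, 2.99% were called higher and 5.22% lower, and 18.6% and 15.4% at an adjusted p under 0.05. Of 19 further amino acid carriers, 3 were called higher and 1 lower, and at an adjusted p under 0.05 10 were higher and 2 lower. Slc6a20b, at a mean level of 5.32, was higher by 1.05 (SE 0.11). Slc6a20a, at a mean level of 10.59, was higher by 0.27 (SE 0.062, limma, adjusted p = 0.00112) and was not called. Slc16a10, a basolateral carrier of aromatic amino acids, was higher by 0.49 (SE 0.076). Slc17a8, a vesicular glutamate carrier, was higher by 0.73 (SE 0.12), and Slc25a22, a mitochondrial glutamate carrier, was lower by 0.40 on the log2 scale (SE 0.066). The median of these carriers was 0.17.

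Of 18 peptidases and carrier partners, 5 were higher and 5 lower at an adjusted p under 0.05 (18.6% and 15.4% over all genes), and Mme, the peptidase neprilysin, was called higher by 0.97 (SE 0.10). The brush border aminopeptidase Anpep differed by -0.09 and the dipeptidase Dpep1 by 0.03.

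Of 20 genes of the ATF4 response to amino acid shortage, 5 were called higher and 1 lower, with 10 higher and 2 lower at an adjusted p under 0.05, beside 2.99% and 5.22% of all genes called and 18.6% and 15.4% at that adjusted p. Cth, which makes cysteine from cystathionine, was higher by 0.99 (SE 0.041), Eif4ebp1 by 0.56 (SE 0.056), Psat1 by 0.49 (SE 0.088), Trib3 by 0.43 (SE 0.081) and Cebpb by 0.38 (SE 0.10). Nupr1 was lower by 0.71 on the log2 scale (SE 0.051), and Asns, the asparagine synthetase, differed by 0.13 (limma, adjusted p = 0.142).

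Of 22 genes of amino acid breakdown, 2 were called higher and 2 lower, with 11 higher and 3 lower at an adjusted p under 0.05, where all genes gave 2.99% and 5.22% called and 18.6% and 15.4% at that adjusted p. Tat, the tyrosine aminotransferase, was lower by 3.05 on the log2 scale (SE 0.20), and Prodh, the proline dehydrogenase, by 0.98 (SE 0.062). Odc1, which makes putrescine from ornithine, was higher by 0.76 (SE 0.076) and Hal, the histidine ammonia lyase, by 0.41 (SE 0.087). The mitochondrial enzymes of citrulline synthesis Otc and Cps1 were higher by 0.35 and 0.28. These 4 lists had medians of 0.17, 0.03, 0.15 and 0.15, beside 0.029 over all genes.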

How the data were processed

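Terminal ileum RNA of 24 mice was measured on Affymetrix mouse gene arrays, 1 per mouse. The values used are log2 expression as deposited by the authors, made with RMA (background correction, quantile normalization between arrays and summarization per probe set). The methods name a remapped probe definition, whereas the deposited rows carry the manufacturer's probe set numbers. Array medians over all probe sets were 4.92 to 4.98, and arrays of 1 group correlated with r of 0.990 to 0.995 over the 18820 genes. The number of arrays limits the precision.

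Of 35556 probe sets, 21218 with a single symbol in the platform annotation were kept. A gene with several was read from its set of highest average level across the arrays. This gave 18820 genes, with no filter on low values. All 62 carriers entered the fit. Groups and replicate numbers come from the sample labels, and where these do not state separate animals the p-values measure the spread between samples.

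A model of 6 group means was fitted to all arrays with limma 3.58.1 in R 4.3.3 (lmFit, eBayes with an intensity trend), with 12 comparisons. Replicate numbers did not pair mice, and no block was used. For 4 against 4 mice an exact permutation test over 35 divisions was run. The fit was tested on simulated data. Alternatives were 1 prior, IBMT, only the groups compared, cyclic loess, array weights, averaged probe sets, genes above the median level, a replicate block and leaving out each mouse.

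Named in the text are all carriers called or at an adjusted p under 0.05 in any comparison, all apical and basolateral ones, and of the lists of other genes the called ones. Slc15a2 and Slc7a15 were named as extremes, and Anpep, Dpep1, Asns, Otc and Cps1 for their function, after their values were seen. Also named after that were Slc6a20a, beside Slc6a20b, and Khk, Slc51a, Slc51b, Cubn and Slc10a2, as markers that passed the adjusted p but were not called. The carriers and gene lists were chosen with earlier results of these data known. Promoter sequences are from RefSeq for GRCm38.p6, whose table held 44 of the 62 carriers. Gene symbols for neighbours come from the same assembly.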

Additional observations from a re-analysis of the deposited data

Results flagged for a closer look

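Among 34 named carriers in 6 groups, 204 groups of 4 mice in all, 18 held a mouse far from the other 3, where chance alone gives about 1 in 20, or 10.2. In each, the gap to the nearest of the others, as a share of the range of the group, passed Dixon's critical value at 95%.

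Slc6a14 was at 6.20 in replicate 1 of germ-free mice after long-chain β2→1-fructan, against 7.82 to 8.00 in the others. The remaining ones concern conventional mice in 11 and germ-free mice in 6 groups. In conventional mice on water, Slc15a5 was at 3.59 in replicate 3, Slc6a19 at 10.40 in replicate 1, Slc6a6 at 9.41 in replicate 2 and Slc7a12 at 2.33 in replicate 4. After short-chain β2→1-fructan, Slc1a1 was at 8.79 in replicate 3, Slc38a1 at 9.14 and Slc7a8 at 8.25 in replicate 2, and Slc6a13 at 3.47 in replicate 1. After long-chain β2→1-fructan, Slc15a1 was at 10.60 and Slc36a2 at 3.68 in replicate 4, and Slc7a12 at 2.01 in replicate 1.

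In germ-free mice, Slc7a9 was at 9.78 in replicate 3 on water and Slc7a1 at 7.47 in replicate 2 after long-chain β2→1-fructan. After short-chain β2→1-fructan, Slc15a4 was at 7.16 in replicate 4, Slc1a3 at 5.51 and Slc38a8 at 3.70 in replicate 2, and Slc38a1 at 8.74 in replicate 1.

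The change of Slc1a3 after short-chain β2→1-fructan differed between germ-free and conventional mice by 0.699 on the log2 scale, by the interaction in limma (adjusted p = 0.90).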

How the results depend on the processing

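Over the 3 treatments, the count of carriers called between germ-free and conventional mice stayed between 6 and 8 in the alternatives that kept all genes. With genes above the median level only, fewer carriers are tested and 2 were called in place of 6, with 5 on water, 3 with the short-chain and 5 with the long-chain fiber in place of 8, 8 and 9. At an adjusted p under 0.05, 16 of these brighter carriers passed over the 3 treatments in place of 25. Slc6a14 stayed at -3.51 to -3.90, Slc36a2 at 1.48 to 1.72 and Slc43a2 at -0.56 to -0.63. Of 35 single calls, 24 held under all their alternatives and none changed direction.

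The counts within a colonization status are of 0 or 1 carrier. With only the arrays of the groups compared they were 1 after short-chain β2→1-fructan in conventional mice, 2 in germ-free mice given short-chain and 0 in those given long-chain β2→1-fructan, and 2 for the interaction after short-chain β2→1-fructan. Genes above the median level gave 0 after short-chain β2→1-fructan and between the fructans in germ-free mice and for that interaction. Cyclic loess gave 0 between the fructans in germ-free mice and 2 for that interaction, and array weights gave 0 between the fructans. Leaving out 1 mouse gave 0 to 1 for each β2→1-fructan against water in conventional mice and for the interaction after long-chain β2→1-fructan, 0 to 2 after short-chain β2→1-fructan in germ-free mice, and 0 to 3 for long-chain β2→1-fructan against water and against short-chain β2→1-fructan in germ-free mice and for the interaction after short-chain β2→1-fructan. The cause was not tested.

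Mice with the same replicate number did not deviate together (correlations of -0.137 to 0.182 over 60 pairs), and no array correlated best with its own number. With a replicate block 6 carriers were called over the 3 treatments and 8, 8 and 9 by treatment, as without the block, and no other count of called carriers changed.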
